A study of Mus musculus with 43 samples.

Results

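The 38 genes described here encode the proteins that copy DNA and mark S phase, and they were taken by symbol from a list. They were 38 of the 23154 gene rows of the yolk sac tables and 38 of the 24411 gene rows of the sorted-cell tables, and all 38 were found in both. By role they were 6 subunits of the replicative helicase (Mcm2 to Mcm7), 4 licensing factors (Orc1, Orc6, Cdc6, Cdt1), 4 helicase activators (Mcm10, Cdc45, Gins1, Gins2) and 7 polymerase or primase subunits (Pola1, Pola2, Prim1, Pole, Pole2, Pold1, Pold3). The remaining members were 8 genes of the sliding clamp, its loader and the single-strand binding protein (Pcna, Rfc1 to Rfc5, Rpa1, Rpa2), 2 that join Okazaki fragments (Fen1, Lig1), 3 that supply nucleotides (Rrm1, Rrm2, Tyms) and 4 of histone supply and chromatin copying (Slbp, Uhrf1, Chaf1a, Chaf1b).

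In a dividing cell, the origin recognition complex with Cdc6 and Cdt1 loads the Mcm ring onto DNA before S phase, and Mcm10, Cdc45 and the GINS complex turn the loaded ring into a moving helicase. Polymerases then copy both strands while Pcna holds them on the template, and new nucleosomes and methylation marks are laid down behind the fork. Transcription of many of these genes is driven by E2F factors as cells leave G1 and is low in cells that have stopped dividing, so their transcripts are widely used as a readout of cycling. In the yolk sac, the first vessels form while blood cells arise from some of their endothelial cells.

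RNA was counted gene by gene in single mouse cells that had been picked by their morphology, with a form of the STRT protocol in which the oligo-dT primer holds barcodes for the cell and for the molecule. The labels call all samples endothelial cells and give no strain, genotype or treatment. The yolk sac (YS) was sampled in 2 libraries at E8.0, 10 at E8.5, 9 at E9.0, 10 at E9.5 and 9 at E10.0, which held 478 cells. A further 3 samples held 130 sorted cells, 1 sample each of Gja5+Cd44+ cells and Gja5-Cd44+ cells of the YS and of Gja5+Cd44+ cells labelled CR, which the labels do not spell out and give no stage for. Nothing says that the libraries of a stage came from separate embryos or litters, so p-values measure only how far libraries spread, and that spread may be technical in part.

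Library totals ran from 2172087 to 42245455 counts. A gene was called on in a cell at 10 CPM (its counts scaled to a fixed library total) or more. Cells with at least 2 of 8 blood genes on (Gata1, Klf1, Gp1bb, Gp9, Spi1, Mpo, Ptprc, Rac2) were called blood-marker cells, and the others, all of which had Cdh5 (VE-cadherin) on, were called endothelial-gated. This gave 169 blood-marker and 309 endothelial-gated cells, so not every cell carried the markers of its label alone. In E8.0 replicate 1, 18 cells are named as positive for a marker, read here as CD41. The other 39 E8.0 cells, with all of replicate 2, are named as negative. The 38 members summed to a median of 7021 CPM in a cell named positive and 5686 CPM in one named negative. The part of this naming in the E8.0 values was not tested. Blood-marker cells made up 0% to 6.25% of a library at E10.0 (median 0%), 0% to 100% at E9.5 (median 100%), 0% to 100% at E9.0 (median 37.5%), 6.78% to 83.3% at E8.5 (median 73.2%), and 31.2% and 41.5% in the E8.0 libraries. For this reason each stage comparison is given over all cells and over endothelial-gated cells.

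Because E2F sites and CCAAT boxes are classic promoter elements of replication genes, the 250 bases before the RefSeq transcription start (GRCm38.p6) were searched, and 33 of the 38 members had such a window (all but Mcm4, Gins1, Gins2, Pole and Rfc2). Of these, 8 (24.2%) held an E2F-type motif, spelled TTTGGCGC, TTTCCCGC, TTTCGCGC or TTTGCCGC on either strand: Mcm5, Mcm6, Mcm7, Orc1, Cdc6, Pola1, Rfc3 and Uhrf1. Among all 27025 genes with a window, 2.16% held it. A CCAAT box on either strand lay in 21 of the 33 windows (63.6%), against 37.5% of all genes. A letter match describes the window and is not a binding site. The windows printed here are of Mcm2, the member with the lowest adjusted p between E8.5 and E10.0, of Mcm5 and Mcm6, helicase genes with an E2F-type motif, and of Pola1, which holds the motif but was not called. They were chosen with those results known and because none overlaps an annotated exon. Each reads 5′ to 3′ on the strand of its gene and ends at the base before the start, with E2F-type motifs in capitals, or the CCAAT box in Mcm2, whose window holds none of the E2F forms.
Mcm2, chr6:88898781-88899030, minus strand: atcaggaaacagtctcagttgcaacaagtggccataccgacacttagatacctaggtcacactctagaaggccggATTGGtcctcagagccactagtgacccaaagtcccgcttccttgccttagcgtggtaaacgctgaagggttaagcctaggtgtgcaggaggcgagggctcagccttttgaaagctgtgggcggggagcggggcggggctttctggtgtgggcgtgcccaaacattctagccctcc
Mcm5, chr8:75109259-75109508, plus strand: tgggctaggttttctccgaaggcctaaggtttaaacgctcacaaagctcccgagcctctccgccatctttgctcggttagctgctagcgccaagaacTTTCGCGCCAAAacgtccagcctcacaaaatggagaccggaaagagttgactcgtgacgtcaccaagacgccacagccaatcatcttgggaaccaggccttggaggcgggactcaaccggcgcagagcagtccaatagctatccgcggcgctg
Mcm6, chr1:128359706-128359955, minus strand: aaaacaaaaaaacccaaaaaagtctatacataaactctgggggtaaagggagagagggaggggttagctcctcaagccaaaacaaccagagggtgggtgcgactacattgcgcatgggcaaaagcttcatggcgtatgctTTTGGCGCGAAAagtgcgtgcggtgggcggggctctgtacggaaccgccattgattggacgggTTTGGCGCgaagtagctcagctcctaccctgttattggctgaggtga
Pola1, chrX:93632156-93632405, minus strand: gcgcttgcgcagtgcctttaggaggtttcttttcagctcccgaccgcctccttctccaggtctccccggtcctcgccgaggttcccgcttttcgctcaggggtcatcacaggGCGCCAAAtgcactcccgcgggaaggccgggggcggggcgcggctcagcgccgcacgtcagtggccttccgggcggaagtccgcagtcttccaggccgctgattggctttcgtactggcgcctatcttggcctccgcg
In Mcm5, matches on both strands began 153 and 149 bases before the start and overlapped. Mcm6 had an overlapping pair at 110 and 106 bases and a further match at 47 bases, and Pola1 had 1 match at 138 bases. The CCAAT box of Mcm2 lay 175 bases before its start, on the opposite strand. In the GENCODE M21 annotation of GRCm38, Mcm2 spans bases 88883474 to 88898780 of chromosome 6, Mcm5 75109569 to 75128439 of chromosome 8, Mcm6 128331590 to 128359664 of chromosome 1 and Pola1 93304767 to 93632155 of chromosome X.

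Replication transcripts were lower at E10.0 than at E8.5 in whole libraries. The 38 members together made up 5603 and 6385 CPM in the E8.0 libraries, 4815 to 6029 (median 5291) at E8.5, 3514 to 6485 (median 5029) at E9.0, 3255 to 6396 (median 4071) at E9.5 and 2259 to 4993 (median 3524) at E10.0. The ranges of neighbouring stages overlapped, as did those of E8.5 and E10.0, where the highest E10.0 library passed the lowest E8.5 library. In the edgeR quasi-likelihood test, 23 of the 38 members were lower at E10.0 than at E8.5 and 0 were higher, while 15.8% of the 13929 genes tested were lower. All 38 passed the filter on low counts, 36 had a negative log2 fold change, and the median was -0.71 against 0.04 over all genes. The called members were 6 of 6 helicase subunits, 3 of 4 licensing factors (Orc6, Cdc6, Cdt1), 3 of 4 activators (Mcm10, Cdc45, Gins1), 1 of 7 polymerase genes (Pola2), 5 of 8 clamp, loader and RPA genes (Pcna, Rfc2, Rfc4, Rfc5, Rpa2), Fen1, Rrm1, Tyms, Slbp and Uhrf1. The other 15 lay between -0.75 (Chaf1a) and 0.33 (Rfc1) on the log2 scale.

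All 6 helicase genes fell. Mcm2 stood at 143 and 197 CPM in the E8.0 libraries, 164 to 263 (median 219) at E8.5, 93.9 to 276 (median 166) at E9.0, 93.97 to 220.2 (median 157) at E9.5 and 42.1 to 169 (median 72.8) at E10.0. Mcm5 stood at 206 and 230.0 CPM in the E8.0 libraries, 180.5 to 305 (median 228) at E8.5, 83.1 to 301 (median 211) at E9.0, 116 to 336 (median 188) at E9.5 and 88.3 to 215 (median 129) at E10.0. For both genes the E10.0 libraries lay mostly below those of E8.5, and the highest E10.0 library overlapped the E8.5 range. Mcm2 fell 2.47-fold from E8.5 to E10.0, and Mcm5 fell 1.82-fold, with a log2 change of -0.86 (SE 0.18, adjusted p = 0.000405). Mcm7 ranged from 199.5 to 295 (median 249.7) CPM at E8.5 and from 29.97 to 193 (median 138) CPM at E10.0. It was the 1 member of which every E10.0 library lay below every E8.5 library, as did 2.46% of all genes, and its log2 change was -1.12 (SE 0.25, adjusted p = 0.000882). Mcm4 ranged from 116 to 237 (median 179) CPM at E8.5 and from 58.3 to 146 (median 88.2) at E10.0, and Mcm3 from 184 to 299.9 (median 231) and from 78.97 to 203 (median 166). Their ranges overlapped, and their log2 changes were -0.93 (SE 0.21, adjusted p = 0.000895) and -0.73 (SE 0.17, adjusted p = 0.000907). Mcm6 had a log2 change of -0.90 (SE 0.22, adjusted p = 0.00176).

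**Figure D1:**
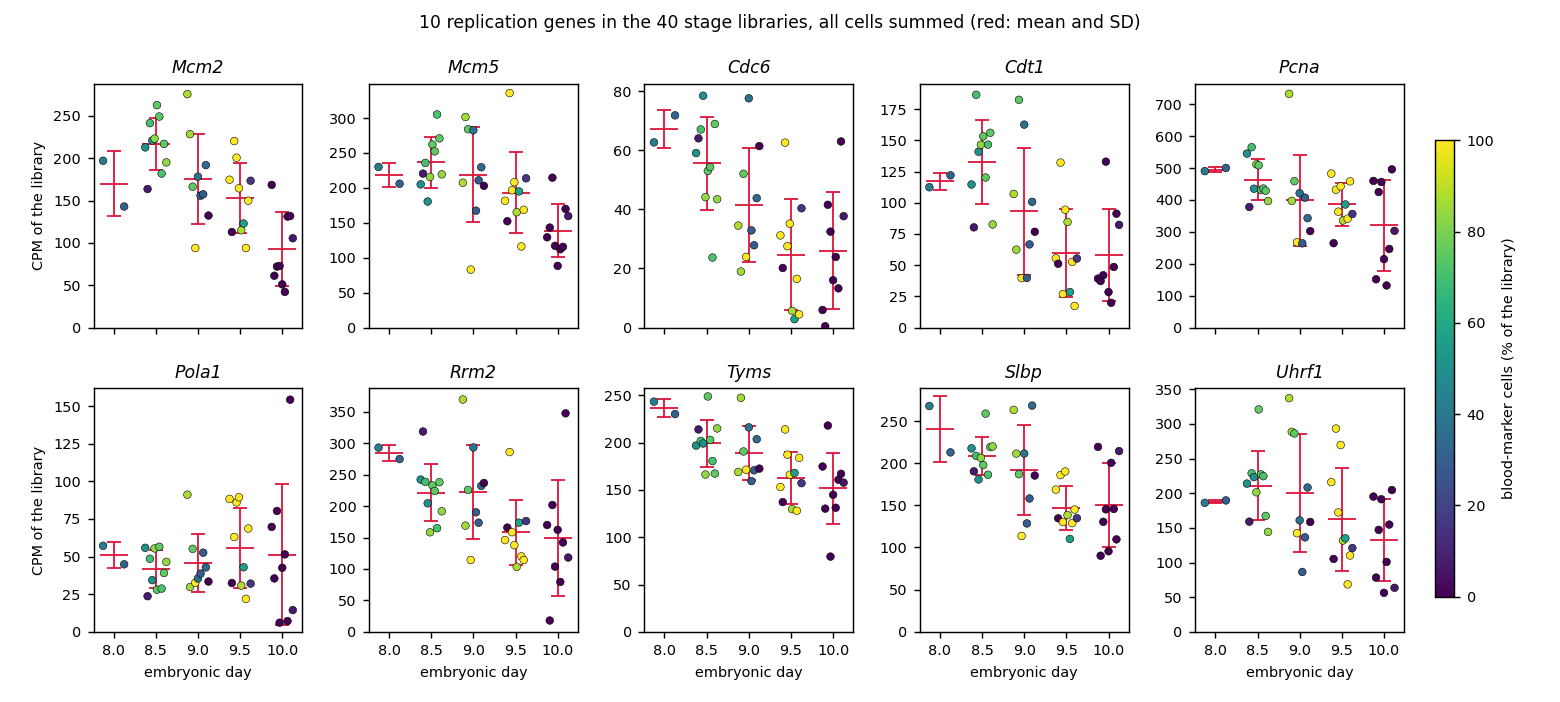
CPM of 10 replication genes (vertical axes) in each of the 40 stage libraries by embryonic day (horizontal axes), all cells summed; each point is 1 library, coloured by its percentage of blood-marker cells, and red bars give the mean and SD. Mcm2 and Cdt1 are lower at E10.0 than at E8.5, Pola1 was not called, and at E10.0 no library has more than 6.25% blood-marker cells.

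Cdc6 and Cdt1, which load the helicase, and Gins1, which activates it, fell as well. Cdc6, which brings the Mcm ring to origins, stood at 62.7 and 71.8 CPM in the E8.0 libraries, 23.7 to 78.4 (median 56.7) at E8.5, 18.96 to 77.6 (median 34.5) at E9.0, 2.85 to 62.6 (median 23.9) at E9.5 and 0.460 to 62.98 (median 23.9) at E10.0. Cdt1, its partner in loading, stood at 112 and 122 CPM in the E8.0 libraries, 80.3 to 186 (median 144) at E8.5, 39.6 to 182 (median 76.8) at E9.0, 17.4 to 132 (median 54.00) at E9.5 and 19.8 to 133 (median 41.95) at E10.0. Levels of both genes spread widely from E9.0 on, and their E10.0 and E8.5 ranges overlapped. The log2 change from E8.5 to E10.0 was -1.17 (SE 0.46, adjusted p = 0.0482) for Cdc6 and -1.29 (SE 0.33, adjusted p = 0.00273) for Cdt1. The call of Cdc6 was lost in 18 of 26 alternatives, with an adjusted p of up to 0.222, and that of Cdt1 in 1 of 26. Gins1, part of the complex that joins Cdc45 to the ring, was the member with the lowest log2 value, -1.54 (SE 0.40, adjusted p = 0.00325), with 33.9 to 83.98 (median 49.9) CPM at E8.5 and 0 to 43.2 (median 18.6) at E10.0.

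Of the 7 polymerase and primase genes, 1 fell. Pola1, the catalytic subunit of the polymerase that lays the primers, stood at 44.8 and 57.1 CPM in the E8.0 libraries, 23.6 to 56.5 (median 42.8) at E8.5, 29.7 to 91.1 (median 38.7) at E9.0, 21.9 to 89.4 (median 52.9) at E9.5 and 6.04 to 154 (median 42.5) at E10.0. Its E10.0 libraries ran from the lowest to the highest value of all stages, and the log2 difference from E8.5 was 0.21 (SE 0.38, adjusted p = 0.715). Pola2, the regulatory subunit of the same polymerase, stood at 770.2 and 1141 CPM in the E8.0 libraries, at 147 to 463 (median 261) at E8.5 and at 15.4 to 249 (median 96.1) at E10.0. It fell by 1.40 on the log2 scale from E8.5 to E10.0 (SE 0.33, adjusted p = 0.00141). Both E8.0 libraries lay above all 10 E8.5 libraries for Pola2, but in edgeR that difference, -1.93 for E8.5 over E8.0 (SE 0.48), missed the threshold with an adjusted p of 0.428. The share of all genes that separate these 2 stages in this way was not counted. Prim1, Pole, Pole2, Pold1 and Pold3 were not called, at -0.60 (Pole2) to -0.07 (Pole).

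Pcna and Tyms fell by less than the helicase genes Mcm2 and Mcm7, and Rrm2 missed the threshold. Pcna, the sliding clamp, stood at 490.4 and 500.2 CPM in the E8.0 libraries, 378 to 565 (median 435) at E8.5, 264 to 733 (median 397) at E9.0, 264 to 483 (median 375) at E9.5 and 132 to 496 (median 303) at E10.0. The E10.0 libraries reached from inside the E8.5 range to well below it, and the log2 change was -0.62 (SE 0.19, adjusted p = 0.0128). Rrm2, the S phase subunit of ribonucleotide reductase, stood at 275 and 293 CPM in the E8.0 libraries, 158 to 319 (median 228) at E8.5, 114 to 369.6 (median 226) at E9.0, 103 to 286 (median 152) at E9.5 and 17.96 to 348 (median 142) at E10.0. Its E10.0 libraries held both the lowest level of any stage and a level above the E8.5 range, and the change of -0.66 (SE 0.27) missed the threshold with an adjusted p of 0.0562. Tyms, which makes thymidylate, stood at 230.3 and 243 CPM in the E8.0 libraries, 166 to 249 (median 201) at E8.5, 159 to 248 (median 173) at E9.0, 128 to 214 (median 162) at E9.5 and 79.5 to 218 (median 158) at E10.0, a log2 change from E8.5 to E10.0 of -0.47 (SE 0.14, adjusted p = 0.0092).

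Slbp, which binds the stem-loop of histone messages, stood at 213 and 268 CPM in the E8.0 libraries, 181 to 259 (median 207) at E8.5, 114 to 268 (median 187) at E9.0, 110.2 to 190.2 (median 137) at E9.5 and 90.2 to 219 (median 145) at E10.0. Uhrf1, which guides DNA methylation onto the new strand, stood at 186 and 189.6 CPM in the E8.0 libraries, 144 to 321 (median 219) at E8.5, 86.4 to 337 (median 161) at E9.0, 68.5 to 293 (median 133) at E9.5 and 56.3 to 205 (median 147) at E10.0. The E10.0 and E8.5 libraries overlapped for both. The log2 changes from E8.5 to E10.0 were -0.57 (SE 0.17, adjusted p = 0.0102) for Slbp and -0.76 (SE 0.24, adjusted p = 0.0148) for Uhrf1. Chaf1a and Chaf1b, subunits of the histone chaperone CAF-1, were at -0.75 (SE 0.42) and -0.28 (SE 0.30) and were not called.

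The step from E9.5 to E10.0 held 6 of these calls. Lower at E10.0 were Mcm2, -0.79 (SE 0.20, adjusted p = 0.00479), Mcm5, -0.55 (SE 0.18, adjusted p = 0.0224), Gins1, -1.14 (SE 0.39, adjusted p = 0.0288), and Pola2, -0.90 (SE 0.33, adjusted p = 0.0383). So were Rfc2 and Rfc5, subunits of the clamp loader, at -1.10 (SE 0.21, adjusted p = 0.00026) and -1.02 (SE 0.27, adjusted p = 0.00579). Rfc2 stood at 112 to 297 (median 222) CPM at E9.5 and at 51.8 to 162 (median 107) at E10.0, and Rfc5 at 37.5 to 87.3 (median 70.4) and 7.15 to 73.4 (median 31.2), so that the ranges of both overlapped. Of all genes 16.4% were lower in this comparison, about the same share as the 6 of 38 members, and the members' median log2 change was -0.27 against -0.05 over all genes. The count was 3 with depth as a covariate, 0 with consecutive titles summed and 10 without E9.5 replicate 10. In this step the summed megakaryocyte markers went from a median of 7172 to 111 CPM and the pan-endothelial markers from 627 to 4223 CPM, and their part was not tested. No member was called in edgeR between E9.0 and E8.5 (0.524% of all genes called, 1 member at an unadjusted p under 0.05), between E9.5 and E9.0 (0% of genes, 4 members) or between E8.5 and E8.0 (0% of genes, 1 member), and the 2 libraries at E8.0 limit the last.

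Cell composition moved with these stage differences. From E8.5 to E10.0 the pan-endothelial list was higher in 8 of 8 genes, and the erythroid, megakaryocyte and myeloid lists were lower in 5 of 6, 6 of 6 and 4 of 7 genes. The summed megakaryocyte markers ranged from 122 to 683 CPM at E8.5 and from 7.30 to 219.9 CPM at E10.0 with Gp5 at 0 in all E10.0 libraries, the summed erythroid markers from 113 to 29998 and from 48.8 to 935 CPM, and the summed myeloid markers from 29.1 to 529 and from 0 to 405 CPM with Ptprc at 0 in all E10.0 libraries. Libraries also differed in depth and in genes detected: the median counts per cell were 603321 to 1130874 at E8.5 and 299205 to 679052 at E10.0, and the median genes per cell 7148 to 8498 and 4257 to 7235. In summed cells, fewer cells with a transcript and less of it in each cell cannot be told apart. By batch title, the only batch the labels name, 32 of 38 members had a lower mean at E10.0 in titles 1 to 21 (4 and 5 libraries), 34 in titles 22 to 33 (4 and 4) and 33 in titles 34 to 38 (1 and 1). The calls were fewer when depth per library was a covariate, with 10 members and 10.9% of all genes called in either direction, where the fit without it called 30.99%. They ended when consecutive titles were summed to 3 libraries each at E8.5 and E10.0. In that fit 0 members and 0.257% of all genes were called in either direction, although 37 members stayed below 0 with a median of -0.70.

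**Figure D2:**
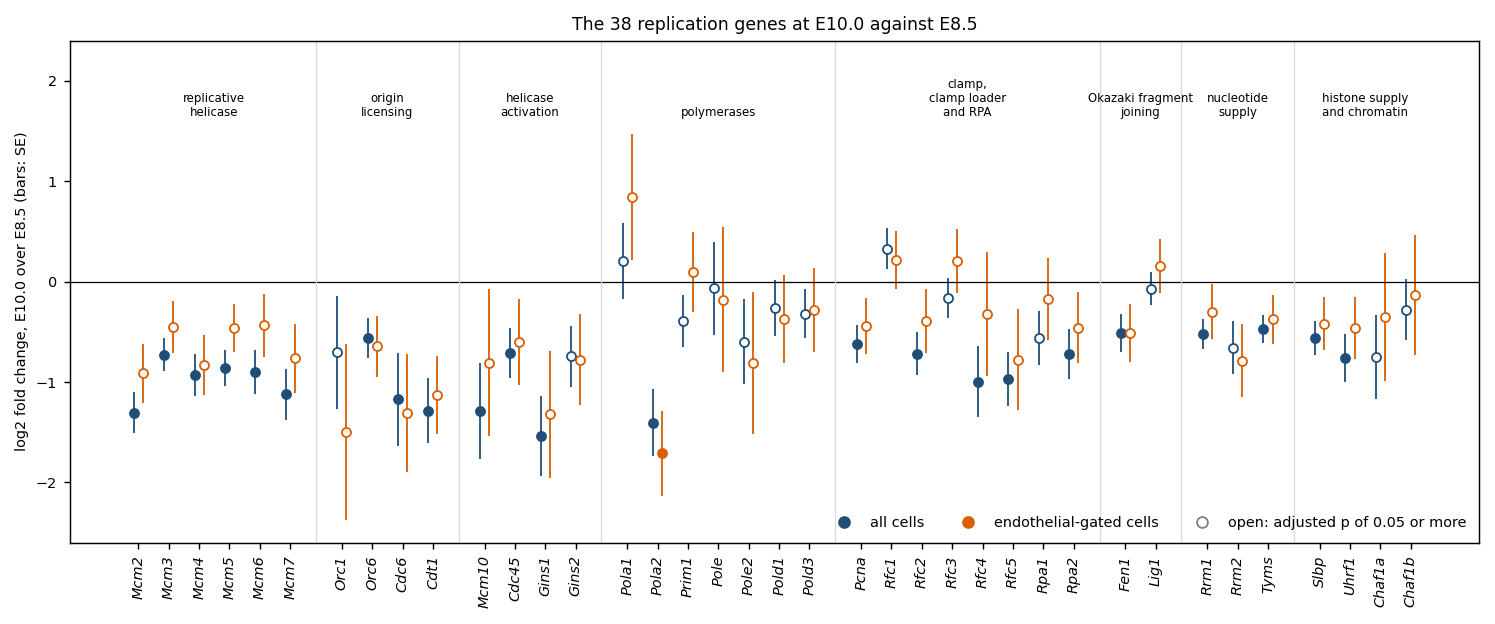
Log2 fold change of E10.0 over E8.5 (vertical axis) for the 38 replication genes grouped by role (horizontal axis), over all cells (blue) and over endothelial-gated cells (orange); bars are SE and open points have an adjusted p of 0.05 or more. All 6 helicase genes are called over all cells, and over endothelial-gated cells only Pola2 is called.

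Among endothelial-gated cells 33 of 38 members also lay below 0 at E10.0 against E8.5, and 1 passed the test. Libraries with at least 3 such cells numbered 2 (E8.0), 4 (E8.5), 5 (E9.0), 3 (E9.5) and 9 (E10.0). Their member sum was 4982 and 5558 CPM at E8.0, 4700.0 to 4974 at E8.5, 3573 to 4664 (median 4384) at E9.0, 3410.4 to 4255 (median 3881) at E9.5 and 2259 to 4993 (median 3405) at E10.0. The 4 E8.5 libraries lay close together, and the E10.0 libraries spread from far below them to just above them. An unadjusted p under 0.05 was reached by 9 members. Here and elsewhere, counts at an unadjusted p are given without the share of all genes and do not set the members apart. In edgeR the called member was Pola2, at -1.71 (SE 0.42, adjusted p = 0.00979), while 3.24% of the 12134 genes tested were called lower. The members' median was -0.46 against 0.14 over all genes, and 25 of 38 lay nearer 0 than over all cells. Inside this gate the summed pan-endothelial markers ranged from 2038 to 3202 CPM at E8.5 and from 3536 to 5250.2 CPM at E10.0. The arterial markers ranged from 161 to 261 and from 324 to 2297 CPM, and the venous markers from 257 to 363 and from 417 to 1036 CPM. The ranges of the 2 stages did not overlap for any of these lists. The part of these markers in the result was not tested.

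Pola2 stood at 667 and 936 CPM in the endothelial-gated cells of the E8.0 libraries, at 149 to 585 (median 261) at E8.5, at 87.6 to 177 (median 117) at E9.0, at 69.3 to 232 (median 75.95) at E9.5 and at 15.4 to 249 (median 91.9) at E10.0. Mcm2 in these cells stood at 102 and 151, 141 to 201 (median 164), 126 to 171 (median 152), 96.1 to 166 (median 113) and 42.1 to 169 (median 72.8) CPM in the same order. Their E8.5 and E10.0 ranges overlapped. The log2 change was -0.91 (SE 0.30, adjusted p = 0.0611) for Mcm2, -1.13 (SE 0.39, adjusted p = 0.0784) for Cdt1, -1.31 (SE 0.59, adjusted p = 0.208) for Cdc6 and -0.44 (SE 0.28, adjusted p = 0.421) for Pcna, none past the threshold. Pola1 was at 0.84 (SE 0.63, adjusted p = 0.533), and the other members with values in every group (Mcm5, Rrm2, Tyms, Slbp, Uhrf1) lay between -0.79 and -0.38. The Pola2 call ended without E8.5 replicate 3 and with the set of batch titles as a covariate. Gates at 50 CPM called 8 members. In the other steps 0 members were called, where 0.0165% of genes were called between E8.0 and E8.5, 0.0412% between E8.5 and E9.0, 0% between E9.0 and E9.5 and 0.0247% between E9.5 and E10.0, and with 3 to 5 libraries at E8.5 to E9.5 the number of libraries limits these steps.

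The member sum in an endothelial-gated cell had a median of 5538 CPM at E8.0 (35 cells), 4748 at E8.5 (78), 3880 at E9.0 (62), 3693 at E9.5 (54) and 2146 at E10.0 (80). The quartiles were 4036 and 5583 CPM at E8.5 and 1435 and 4972 CPM at E10.0. After thinning every cell to 100000 counts, an E8.0 or E8.5 cell had a median of 34 members detected, against 31 at E9.0, 27 at E9.5 and 23.5 at E10.0, and without thinning 36, 36, 35, 30.5 and 28.5. Over all genes the thinned medians fell too, from 6104 and 6067 genes at E8.0 and E8.5 to 5923, 5231.5 and 4755, so the drop is not shown to be particular to the members. No cell of any stage was left out for lower depth. The upper quartile at E10.0 lay inside the E8.5 quartiles and the lower quartile lay below every E8.5 cell.

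The lowest endothelial-gated E8.5 cell had a member sum of 2325 CPM, a mark set after the data were seen, and 55 of the 78 E8.5 cells came from 1 library. Below it lay 0 of 35 cells at E8.0, 6 of 62 at E9.0 (9.68%), 14 of 54 at E9.5 (25.9%) and 45 of 80 at E10.0 (56.2%). All 9 E10.0 libraries held such cells, at 16.7% to 75% of their endothelial-gated cells (median 60%). Of the E10.0 cells, 13 lay within 10% of the mark, so the groups are a range and not types. The low cells had a median of 370804 counts and the others 464418, but within libraries the low cells were the deeper ones in 4 of 9, and at E9.5 they had 595395 counts against 380964. The part of depth was not tested. Of the 45 low cells, 24 had G2/M genes (15 genes of late cell cycle, such as Mki67 and Ccnb1) at or above 1215 CPM, the lowest E8.5 value, and 21 lay below it. At E10.0, 17 of 25 cells with Gja5 on and 28 of 55 without lay below the mark.

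**Figure D3:**
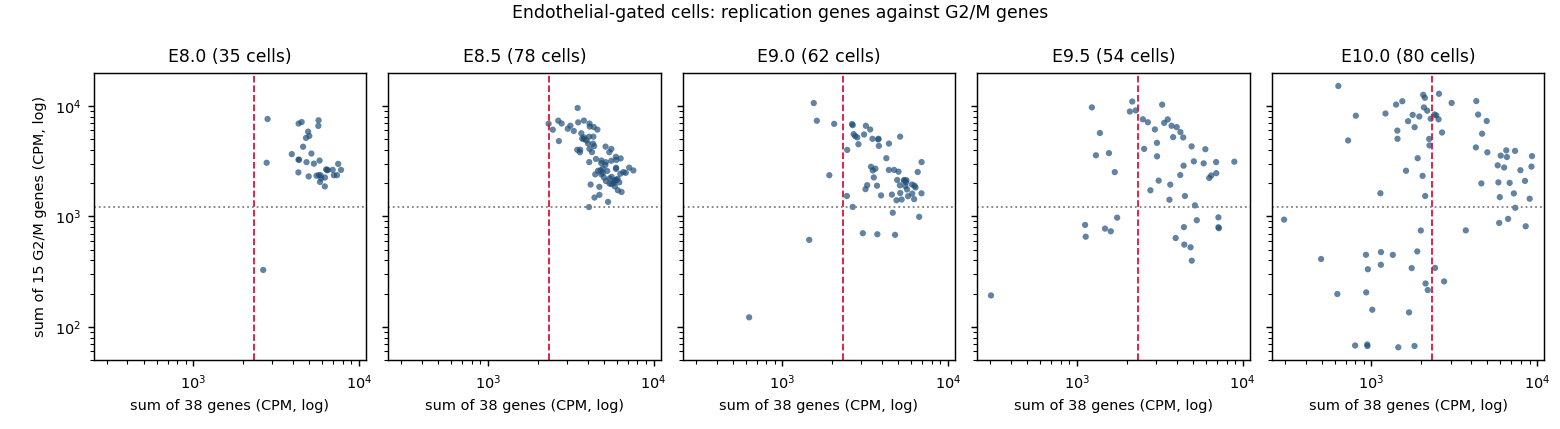
Summed CPM of the 38 replication genes (horizontal axis, log) against summed CPM of 15 G2/M genes (vertical axis, log) in single endothelial-gated cells, 1 panel per stage; lines mark the lowest E8.5 cell on each axis (2325 and 1215 CPM). At E10.0, 45 of 80 cells lie left of the dashed line, 21 of them also below the dotted line.

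In the library of each stage with the most endothelial-gated cells, the sums of replication and G2/M genes had a negative rank correlation at E8.0 to E9.5 and a positive one at E10.0. Spearman's rho between both sums over cells was -0.55 in E8.0 replicate 1 (24 cells), -0.63 in E8.5 replicate 10 (55), -0.40 in E9.0 replicate 9 (39), -0.23 in E9.5 replicate 10 (29) and 0.54 in E10.0 replicate 9 (30), the value at E9.5 being weak. The points are cells of 1 library with depths of their own, and rho of the member sum with depth was -0.02, 0.01, 0.18, -0.38 and 0.49 in the same order. Most members also rose and fell together within a library: the median rho of a member with the sum of the other members was 0.31, 0.33, 0.42, 0.45 and 0.55. Such a rho was not computed for other genes, so this is not shown to be particular to the members. The part of depth was not tested. Over these 5 libraries Rrm2 (median 0.72), Pcna (0.68) and Chaf1b (0.60) followed the others most closely. Rfc1, a loader subunit that also serves repair, had a median of -0.06. Pola2, the member called between E8.5 and E10.0 in endothelial-gated cells, was next lowest at 0.12. Its rho ran from -0.15 to 0.61 and was above 0 in 3 of these 5 libraries.

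Of the 38 members, 9 were higher in blood-marker than in endothelial-gated cells of the same library. In 9 libraries with at least 3 cells of both kinds (2 at E8.0, 4 at E8.5, 1 at E9.0 and 2 at E9.5), the member sum was 5651 ± 991 CPM (SD) in blood-marker and 4735 ± 471 CPM in endothelial-gated cells, higher in 8 of 9. With the library as a block, edgeR called 9 of 38 members higher and 0 lower, while 9.97% of the 9523 genes tested were higher. The members' median log2 difference was 0.39 against 0.03 over all genes, and 33 of 38 lay above 0.

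Mcm2 ranged from 131 to 289 CPM in the blood-marker cells and from 96.1 to 201 CPM in the endothelial-gated cells, higher in the former in 9 of 9 libraries, a log2 difference of 0.75 (SE 0.13, adjusted p = 0.00121). Pcna ranged from 390.1 to 590.1 and from 259 to 485 CPM, also higher in 9 of 9, with 0.58 (SE 0.15, adjusted p = 0.0109). The ranges overlapped between libraries for both genes, while the blood-marker side was higher within each library. Mcm7, 0.65 (SE 0.16, adjusted p = 0.0091), Mcm6, 0.51 (SE 0.13, adjusted p = 0.0105), and the loader gene Rfc4, 1.16 (SE 0.29, adjusted p = 0.0101), were higher in 8 of 9 libraries each. Rfc4 ranged from 39.6 to 91.6 CPM in blood-marker and 13.9 to 48.3 CPM in endothelial-gated cells. Chaf1a, 0.74 (SE 0.21, adjusted p = 0.02), Pola1, 1.17 (SE 0.34, adjusted p = 0.022), Rfc2, 0.60 (SE 0.18, adjusted p = 0.0239), and Gins1, 0.79 (SE 0.24, adjusted p = 0.0269), were the other called members. The call was lost in 1 of 18 alternatives for Mcm2 and in 8 and 10 of 18 for Rfc2 and Gins1.

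None of the 4 licensing genes was called. Cdc6 was higher on the blood side in 5 of 9 libraries (0.15, SE 0.30) and Cdt1 in 6 of 9 (0.33, SE 0.46), and neither was called. Rrm2 was higher in 3 of 9, Tyms, Slbp and Uhrf1 in 7 of 9, and Mcm5 in 6 of 9, with log2 differences of 0.10, 0.47, 0.34, 0.52 and 0.41 that missed the threshold. Blood-marker cells had more counts per cell on average in all 9 libraries, and the part of that depth in the result was not tested. With libraries of at least 5 cells on both sides 1 member was called.

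By lineage and over all stages, the median member sum per library was, of the 3 blood gates, lowest in the megakaryocyte gate (Gp1bb and Gp9 on). It was 4558 CPM there (3255 to 6596 CPM, 11 libraries). The erythroid gate (Klf1 on) had 5106 to 7672 CPM (median 5406, 5 libraries) and the myeloid gate (Spi1 on) 5707 to 6347 CPM (median 5898, 5 libraries). The ranges overlapped, and the gates differ in stage, since 49 of the 84 megakaryocyte-gate cells came from E9.5 and 21 and 12 of the 37 erythroid-gate cells from E8.5 and E8.0. Within a stage the order differed. In the megakaryocyte, erythroid and myeloid gates, the median sum of a cell at E8.0 was 6397 (2 cells), 7591 (12) and 6358 (8) CPM. At E8.5 it was 5367 (8), 5176 (21) and 5646 (24) CPM. At E9.0 it was 5426 (25), 6483 (1) and 5287 (9) CPM, and at E9.5 3805 (49), 4411 (3) and 6741 (3) CPM. No test was made between gates. Mcm2 had medians of 165, 244 and 202 CPM in the megakaryocyte, erythroid and myeloid gates. At E9.5, 12 of 56 blood-marker cells lay below 2325 CPM, against 1 of 54 at E8.5.

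**Figure D4:**
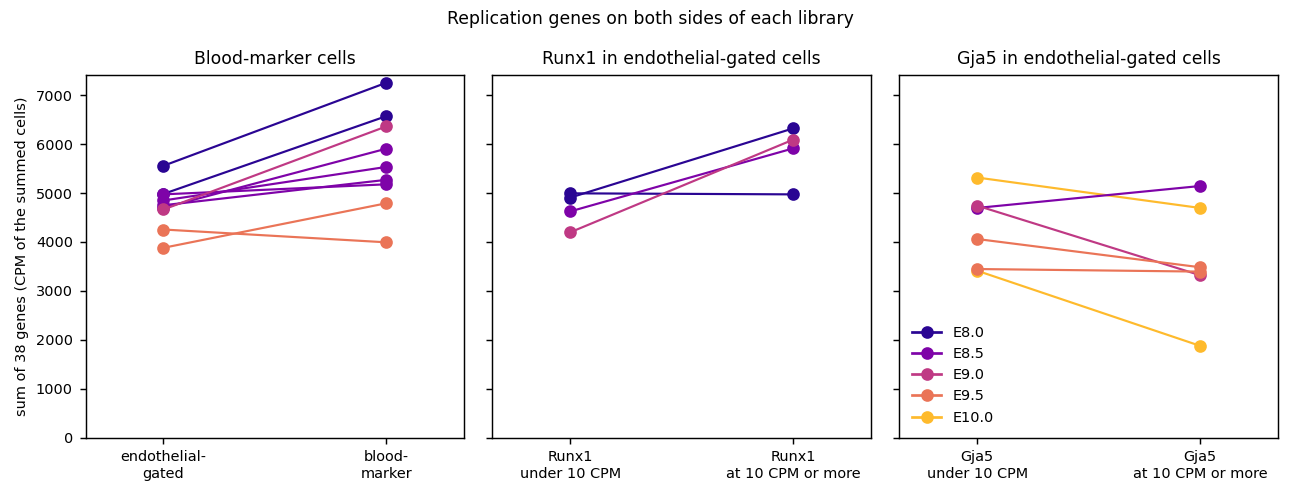
Summed CPM of the 38 replication genes (vertical axis) on both sides of each library, with lines joining the sides of 1 library and colours giving the stage: endothelial-gated against blood-marker cells (left), Runx1 below against at or above 10 CPM (middle) and Gja5 below against at or above 10 CPM (right) in endothelial-gated cells. The sum is higher in blood-marker cells in 8 of 9 libraries, higher with Runx1 in 3 of 4 and lower with Gja5 in 5 of 6.

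Runx1, a transcription factor without which endothelium gives rise to no definitive blood, marked endothelial-gated cells with higher replication sums in 3 of 4 libraries, but no member was called. The 4 libraries were E8.0 replicates 1 and 2, E8.5 replicate 10 and E9.0 replicate 9, and the Runx1 side held 3 to 11 cells. The sum was 6322, 4973, 5913 and 6091 CPM with Runx1 on and 4908, 4995, 4626 and 4199.6 CPM without, in that order. In edgeR 0 of 38 members and 0.0105% of the 9535 genes tested were called, and DESeq2 called 0 members as well. At an unadjusted p under 0.05 there were 4, and 32 of 38 members lay above 0, with a median of 0.42 against -0.06 over all genes. The summed myeloid markers ranged from 21.98 to 70.4 CPM with Runx1 on and from 8.86 to 19.6 CPM without. The megakaryocyte markers ranged from 99.7 to 180.3 and from 62.4 to 108.9 CPM, and no tested gene of either list was called. Cells with Runx1 on also had more counts on average in each library. The part of these markers and of depth in the result was not tested.

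Pcna was 516, 494, 527 and 545 CPM with Runx1 on and 418, 373, 354 and 276 CPM without, and the sides did not overlap. Its log2 difference was 0.55 (SE 0.16, adjusted p = 0.854). Mcm3, Mcm6, Mcm7, Cdt1, Mcm10, Gins1, Pola1, Rfc2, Rpa1 and Chaf1b were likewise higher with Runx1 on in 4 of 4 libraries. How many of all genes were so was not counted, so this does not set the members apart. Mcm2, Mcm5, Cdc6, Rrm2, Slbp and Uhrf1 were higher in 3 of 4 and Tyms in 2 of 4, with log2 differences from 0.02 (Tyms) to 0.48 (Mcm2). The G2/M genes went the other way, with 15 of 15 below 0, a median of -1.08 and 11 at an unadjusted p under 0.05, none of them called. With few cells on a side, the share of cells in late cell cycle and the level per cell cannot be told apart here.

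Gja5, the gap junction gene of arterial endothelium, was compared in 6 libraries (1 each of E8.5 and E9.0, 2 each of E9.5 and E10.0). The member sum was 4695, 1877, 5144, 3321, 3395 and 3484 CPM with Gja5 on, in E10.0 replicates 8 and 9, E8.5 replicate 10, E9.0 replicate 9 and E9.5 replicates 10 and 9. It was 5317, 3411, 4696, 4741, 3447 and 4060.3 CPM without, so that the Gja5 side was lower in 5 of 6 libraries while the ranges overlapped. No member was called by edgeR, as against 0.192% of the 9873 genes tested, nor by DESeq2, and 5 had an unadjusted p under 0.05. The members' median log2 difference was -0.32 against -0.09 over all genes, with 34 of 38 below 0.

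Mcm3 was 160.5, 102, 180.3, 123, 144 and 113 CPM with Gja5 on and 245, 122, 183, 219.9, 211 and 229.5 CPM without, lower in 6 of 6 libraries, a log2 difference of -0.55 (SE 0.20, adjusted p = 0.934). Pold3, an accessory subunit of polymerase delta, was lower in 6 of 6 as well, at -1.19 (SE 0.40, adjusted p = 0.87). Mcm2 was lower in 4 of 6 (-0.42), Mcm5 and Cdc6 in 4 of 6, Cdt1, Slbp and Uhrf1 in 5 of 6, Pola1 in 4 of 6, and Pcna, Rrm2 and Tyms in 3 of 6. E10.0 replicate 9 was the library with the lowest sum on the Gja5 side, with Pcna at 126 CPM on the Gja5 side and 326 CPM on the other. The G2/M genes had a median log2 difference of 0.03.

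The sorted samples have 1 library a group, so they have no test and the intervals cover counting error only. The member sum was 3943 CPM in Gja5+Cd44+ CR cells (95% Poisson interval 3902 to 3983), 3168 CPM in Gja5+Cd44+ YS cells (3135 to 3201) and 4545 CPM in Gja5-Cd44+ YS cells (4499.6 to 4591). In the yolk sac, 10 of the 37 members with at least 10 CPM in a sample were at least 2-fold lower in Gja5+Cd44+ than in Gja5-Cd44+ cells and 0 were higher, where 17.5% of all genes were lower. They were Mcm7, Cdc6, Mcm10, Gins2, Pola2, Pole2, Pold3, Rfc4, Rfc5 and Chaf1b, and the members' median log2 ratio was -0.64 against -0.01 over all genes. Gja5+Cd44+ YS cells were at least 2-fold below CR cells in 4 members (Mcm10, Gins2, Pold3, Chaf1b), where 15.5% of genes were. CR cells were below Gja5-Cd44+ YS cells in 3 (Mcm10, Pola2, Pold1), where 15.4% of genes were. The 3 comparisons share samples.

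In the order CR, Gja5+ YS and Gja5- YS, Mcm7 stood at 187, 99.2 and 223 CPM, Mcm2 at 158, 101 and 153 CPM and Mcm5 at 172, 126 and 214 CPM. Cdc6 stood at 34.1, 17.4 and 52.4 CPM and Cdt1 at 81.5, 61.5 and 113 CPM. In summed cells the Gja5+ YS sample was the lowest of the 3 for each of these genes. By the mean over cells it stayed lowest for Mcm7, Mcm2, Mcm5 and Cdc6. For Cdt1 the CR sample was lowest by that mean, at 78.5, 106 and 118 CPM in the same order. Mcm10, which helps start the helicase, stood at 26.5, 11.1 and 57.9 CPM, and Pold3 at 58.2, 14.5 and 93.8 CPM, the member with the widest ratio between the YS samples. Pcna differed little, at 183, 191 and 199 CPM, and Tyms was highest in Gja5+ YS cells, at 189, 204 and 151 CPM. Pola1 stood at 34.3, 24.1 and 43.4 CPM, Rrm2 at 163, 99.2 and 150.2 CPM, Slbp at 63.5, 69.2 and 112 CPM and Uhrf1 at 169.8, 143 and 198 CPM. Orc1 was under 10 CPM in all 3 samples.

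**Figure D5:**
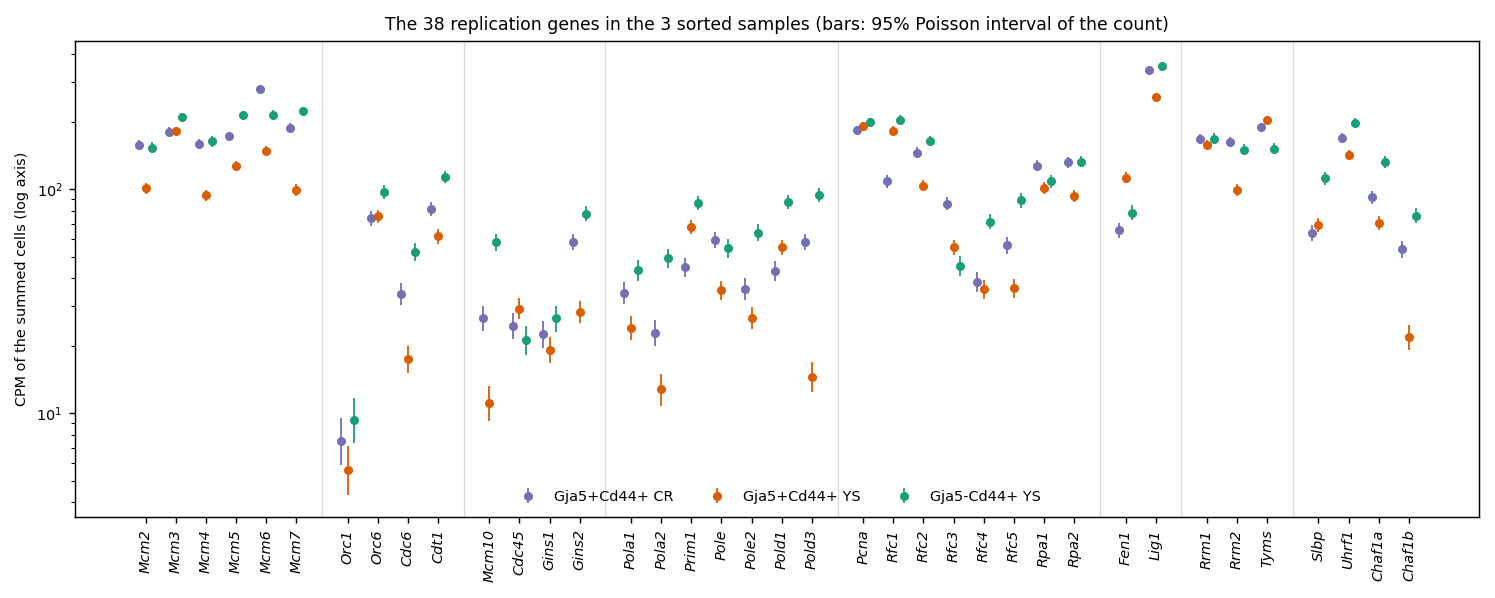
CPM of the 38 replication genes (vertical axis, log) in the 3 sorted samples, grouped by role (horizontal axis); each point is 1 sample and bars are 95% Poisson intervals of the count. Gja5+Cd44+ YS cells (orange) are lowest for Mcm7, Cdc6, Mcm10 and Pold3, and the samples lie close together for Pcna.

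The sorted samples differed in their other cells. Blood-marker cells were 5 of 44 in CR, 5 of 50 in Gja5+ YS and 20 of 36 in Gja5- YS, and the summed erythroid markers were 134, 23052 and 11494 CPM with 2, 0 and 0 of 6 markers at 0. G2/M genes summed to 2324, 4307 and 4449 CPM, so the sample lowest in replication genes was not the lowest in G2/M genes. In endothelial-gated cells alone, Gja5+ YS cells were at least 2-fold lower than Gja5- YS cells in 12 members and higher in 2 (Gins1, Fen1). Of the members 2-fold lower over all cells, Gins2 (22.1 and 26.2 CPM) and Rfc5 (27.7 and 37.4 CPM) were under 2-fold here. Mcm5, Orc1, Pola1 and Slbp were 2-fold lower only here. The Gja5- YS sample had 16 such cells. Of all 9380 genes compared in these cells, 1898 were lower and 2140 higher. In the same order there, the erythroid markers summed to 145, 15923 and 3629 CPM, the mesenchyme markers to 222, 549.6 and 2524 CPM and the visceral endoderm markers to 0, 4.28 and 241 CPM. Their part in the ratios was not tested.

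Genes of the same pathway outside the 38 were counted from lists. At E10.0 against E8.5, where 15.8% of all genes were lower, the remaining genes and the G2/M genes had shares near that. Of 21 tested remaining replication genes, 4 were lower at E10.0 than at E8.5 over all cells and 0 higher, among them Rpa3, a subunit of the single-strand binding protein (-0.75, SE 0.18, adjusted p = 0.00171), and Wdhd1, a replisome adaptor (-1.41, SE 0.42, adjusted p = 0.0104). Of 20 other S phase and E2F target genes, 6 were lower and 0 higher, led by Dut, which removes dUTP (-1.49, SE 0.19, adjusted p = 2.53e-07), and Tipin, which steadies the fork (-0.76, SE 0.20, adjusted p = 0.00392). Of 15 G2/M genes, 3 were lower and 2 higher, with Ccnb1, a mitotic cyclin, at -0.77 and Cenpe, a kinetochore motor, at 0.84. Over endothelial-gated cells the counts were 0 lower of 20, 1 lower of 20 (Dut) and 0 of 15. In blood-marker cells 2 of 19, 4 of 20 and 1 of 15 were higher, where 9.97% of all genes were, and 0, 0 and 1 lower, and in the Gja5 and Runx1 comparisons 0 of each list were called.

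At E10.0 against E8.5 over all cells, 5 of the 8 members with an E2F-type motif were called lower and 15 of the 25 with a window but without it. For the CCAAT box the counts were 13 of 21 and 7 of 12. Of the printed windows with an E2F-type motif, those of Mcm5 and Mcm6 belong to genes that were called and that of Pola1 to one that was not.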

How the data were processed

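Single-cell RNA counts from mouse yolk sac and from sorted cells were used as deposited. Per the labels' protocols, the authors picked cells by morphology, tagged them with barcodes and molecular identifiers and sequenced pooled STRT libraries; per the submitters' processing notes the build was mm10. The aligner, counter, strand use and collapsing of identifiers were not given in the sources used here. Without the strand setting, reads of overlapping genes cannot be told apart. From the sorted samples, 95 spike-in rows, 3.25% of the counts, were left out of totals. No cell columns were identical, no cell name was shared by libraries, and no doublet caller was run on these picked cells.

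Counts were summed per library, or per library and side of a gate, with at least 3 cells. They were normalised by TMM, filtered by filterByExpr and tested by the quasi-likelihood test of edgeR 4.0.16 in R 4.3.3, with DESeq2 1.42.0 as an alternative; p-values were adjusted by Benjamini-Hochberg over all genes tested and called under 0.05. Stage fits used all libraries of the 5 stages, and gate comparisons had the library as a block. Gates were set on Cdh5, on Gja5 or Runx1, and on 8 blood genes; the blood-marker comparison shares those genes with its gate, and none is a replication gene. In blood-marker cells the megakaryocyte gate was set first, then the erythroid, then the myeloid gate. CPM is a count over the total of the library or cell. The sorted samples have 1 library a group and were compared by ratio, 2-fold or more, among genes with at least 10 CPM in 1 of the samples of a pair. Intervals cover counting error only. The scripts were tested on simulated counts (Python 3.11.15 and R).

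The members and gene lists were chosen with earlier results of these data known. Named in every group were Mcm2, Mcm5, Cdc6, Cdt1, Pcna, Pola1, Rrm2, Tyms, Slbp and Uhrf1; named in a comparison were its called members, or the 6 of lowest adjusted p where more were called, and in other lists the 2 called genes of lowest adjusted p. Other members were named after their values were seen. Alternatives were another scaling, no filter, DESeq2, other gates, depth and batch-title covariates, and leaving out each library; lineage gates alone, gates without the blood exclusion, the cells named positive and endothelial-gated sorted cells were added after seeing the data.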

Additional observations from a re-analysis of the deposited data

Results flagged for a closer look

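In groups of 4 to 10 libraries, 10 of the 70 gene and stage groups examined held a library that stood apart from the rest by Dixon's criterion. Each was the highest library of its group. The criterion is set to be met in about 1 of 20 independent groups of normal values. Genes share libraries here and some cells enter 2 groups, so the 10 cannot be set against that rate. At E9.0, replicate 1 stood apart for Pcna (732.6 CPM, next library 459) and for Pola1 (91.1 CPM, next 55.1). At E9.5, replicate 2 stood apart for Mcm5 (336 CPM, next 214) and Rrm2 (286 CPM, next 176). At E10.0, replicate 8 stood apart for Pola1 at 154 CPM (next 80.3), over all cells and over endothelial-gated cells alike, since the same cells enter both. At E8.5, replicate 10 stood apart for Rrm2 (319 CPM, next 242), replicate 6 for Slbp (259 CPM, next 219.9) and replicate 5 for Uhrf1 (321 CPM, next 229). Over endothelial-gated cells, E8.5 replicate 3 stood apart for Slbp (236 CPM, next 189).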

How the results depend on the processing

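Members called between E10.0 and E8.5 over all cells fell from 23 to 10 with depth as a covariate and to 0 with consecutive titles summed, and between E10.0 and E9.5 from 6 to 3 and 0; leaving out 1 library gave 19 to 25 and 4 to 10. Over endothelial-gated cells 1 call became 2 with DESeq2, 0 with batch titles as a covariate, 8 with gates at 50 CPM and 0 to 2 without 1 library. It was 0 without E8.5 replicate 3 and 2 without E10.0 replicate 1, 4, 7 or 8. The 9 calls in blood-marker cells became 14 with DESeq2, 2 with gates at a count of 1, 1 with at least 5 cells a side, 0 with myeloid-gate cells alone, where Rfc4 stood at -0.26, and 6 to 13 without 1 library. With blood-marker cells kept among Cdh5 cells, 1 member was called by Runx1 status, against 0. At 1.5-fold, members apart in sorted samples became 21 from 10 (Gja5+ YS against Gja5- YS), all lower. They became 17 from 4 (against CR), 14 lower and 3 higher, and 12 from 3 (CR against Gja5- YS), 11 lower and 1 higher. Over all genes, 2629 were lower and 2795 higher of 9395, 2437 and 2291 of 9390, and 2351 and 2772 of 9496, in that order. In endothelial-gated cells, members at least 2-fold apart became 8 in the second pair, all lower, and 9 in the third, 6 lower and 3 higher. Over all genes there, 1540 were lower and 1491 higher of 9373, and 1896 and 2318 of 9529. With the mean per cell the third pair had 5, all lower, where 1515 of 9438 genes were lower and 1866 higher. The causes of these moves were not tested. Of the values for single genes, 794 kept their direction and side of the threshold, 144 kept the direction but missed the threshold, and 1, Rfc4, changed sign. Other comparisons stayed at 0 calls without any 1 library. Sides of a gate were compared with the library as a block. Between stages, no paired analysis was possible because replicate numbers follow accession order only. Few libraries at E8.0, few cells on the Runx1 and Gja5 sides, and unequal blood-marker shares limit the comparisons.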
